A study of Phalaenopsis equestris with 4 samples.

Results

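The root and stem libraries of Phalaenopsis equestris, a butterfly orchid, were compared transcript by transcript. Each tissue was sampled once, from 3-year-old plants, as 1 RNA sequencing library of total RNA, and the series also holds 1 leaf and 1 flower library of the same age. No treatment or genotype is given in the labels, and neither they nor the design text say how many plants stand behind a library. Levels are FPKM, by its usual definition fragments scaled to transcript length and library size, for contigs, the transcript sequences that the authors assembled from their own reads. A contig entered the comparison where its FPKM was 1 or more in root or in stem, which 143591 of 221878 contigs met. With 1 library per tissue no difference has a replicate check, no p-value can be given, and every statement compares these libraries. Contigs carry no gene names except in the authors' lists of heat shock proteins and R genes, so defining markers of root and stem were not checked here. In whole tissues, fewer cells of a type and less RNA per cell cannot be told apart.

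Phalaenopsis is an epiphyte: its roots are largely aerial and wrapped in velamen, a spongy layer of dead cells that takes up water, and its short stem joins roots, leaves and inflorescence. Heat shock proteins are chaperones. HSP20 proteins, the small heat shock proteins, hold unfolding proteins in a soluble state without using ATP, HSP70 binds and releases unfolded chains in an ATP-driven cycle, and HSP90 completes the folding of signalling proteins, among them plant immune receptors. R genes are plant disease resistance genes, many of which encode receptors with a nucleotide-binding domain and leucine-rich repeats that sense pathogen effectors inside the cell.

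More contigs were higher in root than in stem, and the surplus depended on level. Differences are given as log2(FPKM + 1) in stem minus root, a scale that understates the change of low contigs. Of the 143591 contigs, 94810 (66.0%) were higher in root, 48770 (34.0%) were higher in stem and 11 were equal. For many the filter fixed the direction, since 54320 reached 1 FPKM in root only and 26564 in stem only. Over the 62707 contigs at 1 FPKM or more in both libraries the median difference was -0.25. Of these 1795 were at least 4-fold higher in root and 710 in stem. Over all contigs compared the median difference was -0.49, with the 5th percentile at -2.30 and the 95th at 1.78. Root was at least 2-fold higher in 44560 contigs (31.0%) and stem in 21061 (14.7%). At 4-fold or more, 11250 contigs (7.83%) were higher in root and 5262 (3.66%) in stem, so root held 68.1% of these calls. That share was 62.1% when the libraries were scaled to the median ratio of contigs at 10 FPKM or more in both, 56.6% when scaled to that of contigs at 1 FPKM or more in both, and 55.1% with the sums of both libraries set equal. In 7620 of the 11250 root calls stem was listed at 0, and in 3616 of the 5262 stem calls root was listed at 0, which is 67.7% and 68.7%.

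**Figure D1:**
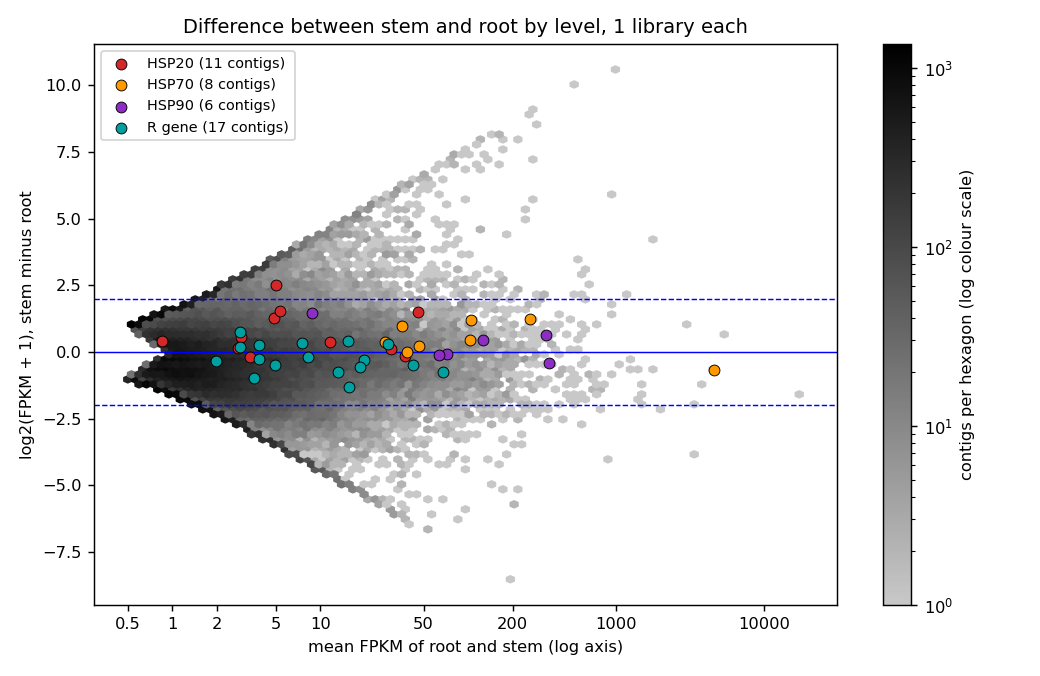
The vertical axis gives log2(FPKM + 1) in stem minus root and the horizontal axis the mean FPKM of both libraries, on a log axis. Grey hexagons count the 143591 contigs, coloured points are the contigs of the authors' heat shock and R gene lists, and dashed lines mark 4-fold. Most contigs lie below 0, while the widest differences at high level point towards stem, up to 10.59.

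Contigs were grouped by their mean FPKM over both libraries. Between 2 and 5 FPKM, 14.7% of 37541 contigs were at least 4-fold higher in root and 6.41% in stem. The imbalance was widest between 5 and 10 FPKM, at 2081 contigs higher in root against 709 in stem, and narrowed to 1053 against 538 between 10 and 50 FPKM. From 50 to 1000 FPKM the side with more 4-fold calls was no longer root. From 50 to 200 FPKM these counts were 104 in root and 109 in stem, and from 200 to 1000 FPKM they were 20 and 25. At 2-fold root still had more as deposited, at 411 against 224 from 50 to 200 FPKM and 60 against 43 from 200 to 1000 FPKM. With the ratio over contigs at 1 FPKM or more, the 2-fold counts in these bins were 258 against 318 and 43 against 53. The 4-fold root surplus between 2 and 50 FPKM held in all 3 other scalings. Each of these raises stem against root, so the 4-fold stem surplus between 50 and 1000 FPKM could only grow and is not checked by them. In these scalings the bin from 50 to 200 FPKM held 63 to 82 root calls and 124 to 142 stem calls at 4-fold. With a pseudocount of 0.1 this bin held 115 root and 111 stem calls. Between 1 and 2 FPKM the direction flipped with scaling, from 2467 root and 1472 stem calls as deposited to 1207 and 2196 with the ratio over contigs at 1 FPKM or more. Under 1 FPKM the 4-fold rule cannot be met, and only 19 contigs reached a mean of 1000 FPKM, 3 of them called for root and 2 for stem.

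**Figure D2:**
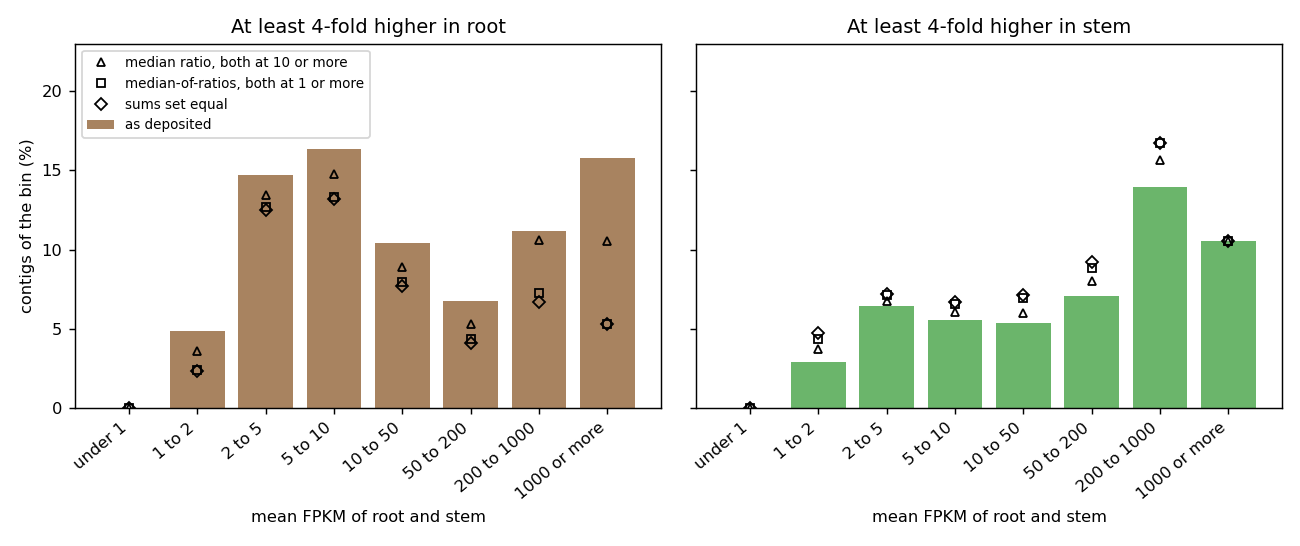
Bars give the percentage of contigs in each bin of mean FPKM that were at least 4-fold higher in root (left) or in stem (right) as deposited, and open symbols give it under the 3 other scalings. The highest bar is that from 5 to 10 FPKM in root, at 16.3%, and that from 200 to 1000 FPKM in stem, at 14.0%; the last bin holds only 19 contigs.

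On the FPKM + 1 scale the spread of the difference had no single trend with level, also when only the bins from 1 FPKM upwards are read. With other pseudocounts the pattern changed. In the bin under 1 FPKM the filter itself shapes the spread. Each contig kept there is at 1 FPKM or more in 1 library and under 1 FPKM in the other. As deposited the interquartile range was 2.00 under 1 FPKM, 1.35 between 1 and 2 FPKM, 1.62 between 2 and 5 FPKM and 1.78 between 5 and 10 FPKM. It was 1.48 both from 10 to 50 and from 50 to 200 FPKM, 2.22 between 200 and 1000 FPKM and 1.36 at 1000 FPKM or more. With a pseudocount of 0.1 it was wider at low level, at 4.81 under 1 FPKM and 2.34 between 1 and 2 FPKM, against 1.56 between 10 and 50 FPKM, 2.23 between 200 and 1000 FPKM and 1.36 at 1000 FPKM or more. The median difference was negative in each bin as deposited, from -0.26 at 200 to 1000 FPKM to -0.72 at 1000 FPKM or more. From 10 to 1000 FPKM its sign turned in 2 of the 3 other scalings: the medians of these 3 bins ran from 0.03 to 0.10 with the ratio over contigs at 1 FPKM or more and from 0.06 to 0.13 with sums set equal. Summed FPKM was 895717 in root and 684575 in stem. The bin from 2 to 5 FPKM held 24.6% of the difference between these sums. A further 16.6% came from the 19 contigs at 1000 FPKM or more, and a single contig of that bin accounted for 8.68%.

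Abundant transcripts that were nearly missing from the other library lay mostly on the stem side. These cut-offs were chosen after their values were seen. At 100 FPKM or more in 1 library and under 1 FPKM in the other, 38 contigs in 35 Trinity genes stood in stem and 4 in root. Trinity genes are sets of contigs that the assembler treats as isoforms. At 50 FPKM or more there were 79 in stem and 30 in root. At lower levels root had more: 1517 root contigs at 10 FPKM or more were under 1 FPKM in stem, against 683 stem contigs under 1 FPKM in root. At 20 FPKM or more the order depended on scaling, with 237 in stem and 276 in root as deposited but 264 to 295 in stem and 182 to 231 in root under the other scalings. At 100 FPKM there were 42 to 45 in stem and 1 to 4 in root under those scalings, all of which raise stem against root.

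The widest differences of single contigs were larger on the stem side, and the files used here give these contigs no gene name. Contig c152100_g1_i1 stood at 1884 FPKM in stem and 0.224 FPKM in root, with 0.607 in leaf and 25.8 in flower. Contig c109042_g1_i1 was at 1051 FPKM in stem and listed at 0 in root, while leaf had 6778 FPKM and flower 4471 FPKM. On the root side c103978_g1_i1 was at 366 FPKM and listed at 0 in stem and leaf, with 0.969 FPKM in flower, and c83156_g1_i1 was at 107 FPKM and listed at 0 in stem, leaf and flower. Both stem contigs stood above 10 FPKM in flower, and both root contigs were under 1 FPKM there; in leaf 1 of the stem contigs and both root contigs were under 1 FPKM.

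Levels in leaf and flower, which took no part in choosing the contigs, also differed between the calls. Between 10 and 50 FPKM, 30.6% of the 1053 contigs higher in root reached 1 FPKM in leaf and 24.8% did so in flower. Of the 538 contigs higher in stem in that bin, 84.0% reached 1 FPKM in leaf and 88.8% in flower. Contigs of the same level that passed the 4-fold rule in neither direction resembled the stem group, at 89.3% in leaf and 87.7% in flower. Median levels in that bin were 30.5 FPKM in leaf and 25.9 FPKM in flower for contigs higher in stem, and 0 in both for contigs higher in root. The share listed at 0 in leaf was 67.6% for contigs higher in root and 14.1% for those higher in stem, and in flower it was 50.6% and 3.90%. A gap remained from 50 to 200 FPKM, where 78.8% of the 104 root contigs and 91.7% of the 109 stem contigs reached 1 FPKM in leaf, and 77.9% and 92.7% did so in flower. Between 2 and 5 FPKM the stem group lay below the contigs called in neither direction in leaf. There 4.84% of root contigs, 26.5% of stem contigs and 45.1% of the others reached 1 FPKM in leaf. In flower these shares were 3.15%, 33.2% and 29.7%.

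Most of the abundant stem contigs also reached 10 FPKM in leaf and in flower. Of the 38 contigs at 100 FPKM or more in stem and under 1 FPKM in root, 30 were at 10 FPKM or more in leaf, 32 in flower and 29 in both. Their medians were 157 FPKM in leaf and 125 FPKM in flower. Another 4 were under 1 FPKM in both leaf and flower and thus abundant in stem alone. The 4 contigs at 100 FPKM or more in root and under 1 FPKM in stem were under 10 FPKM in both leaf and flower. Of the 683 contigs at 10 FPKM or more in stem and under 1 FPKM in root, 265 reached 10 FPKM in leaf and 288 in flower, and 211 were under 1 FPKM in both. Of the 1517 at 10 FPKM or more in root and under 1 FPKM in stem, 19 reached 10 FPKM in leaf and 2 in flower, and 1394 were under 1 FPKM in both. Zeros carry unequal weight: the median value above 0 was 4.53 FPKM in leaf and 0.495 FPKM in flower, so a 0 in leaf says less than a 0 in flower.

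**Figure D3:**
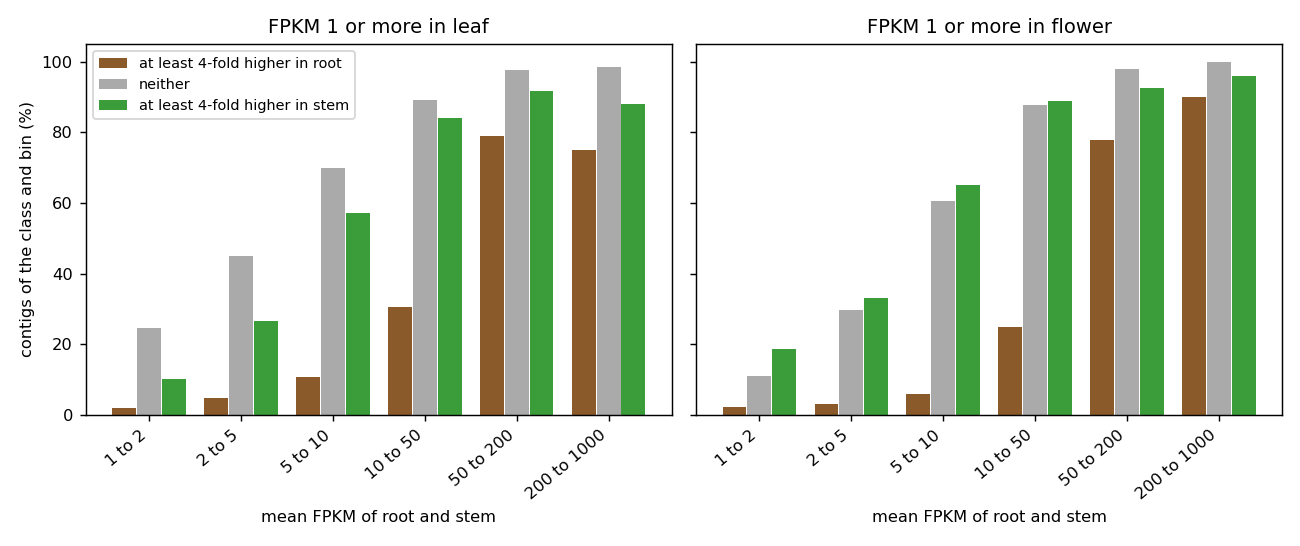
Bars give the percentage of contigs at FPKM 1 or more in leaf (left) and in flower (right), by bin of mean FPKM in root and stem, for contigs at least 4-fold higher in root, at least 4-fold higher in stem, or neither. At 10 to 50 FPKM the root bars stand at 30.6% and 24.8% and the stem bars at 84.0% and 88.8%.

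Low values moved in steps, which limits how far they can be read. Over 62181 Trinity genes of a single contig, with FPKM above 0.3 and under 5 in both libraries, the log2 ratio of stem to root FPKM had its most frequent value at -0.67. Further peaks stood at 0.36 and -1.63, close to 1 unit above and below. Peaks so spaced would arise from small whole numbers of reads, with -0.67 the value at equal numbers. A contig at equal FPKM would then rest on 1.59 reads in stem for each read in root. Read totals per library were not used here. The median log2 ratio was -0.36 over the 62707 contigs at 1 FPKM or more in both libraries, -0.19 at 5 FPKM, -0.18 at 10 FPKM and -0.16 at 50 FPKM or more. Thus the offset towards root was larger where low contigs were included. The part of these steps in the surplus of low contigs higher in root was not tested.

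**Figure D4:**
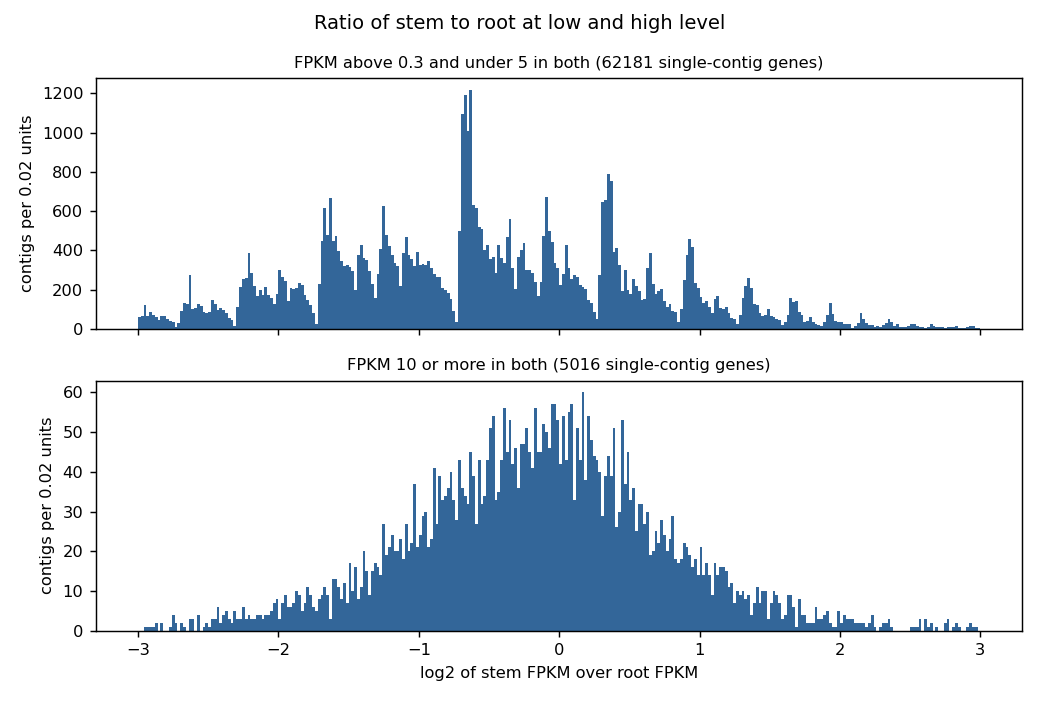
Histograms of the log2 ratio of stem to root FPKM, in steps of 0.02 units, for single-contig Trinity genes above 0.3 and under 5 FPKM in both libraries (top) and at 10 FPKM or more in both (bottom). The low contigs pile up at separate ratios, with the highest pile near -0.67 and its tallest bar starting at -0.64, while the abundant contigs form 1 broad distribution.

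Few Trinity genes held isoforms called in opposite directions, but calls of either kind were rare there. Of contigs from genes of several contigs, 3.43% were at least 4-fold higher in root and 2.64% in stem. A low count of genes with both therefore says little about how isoforms behave. Among 13344 Trinity genes with 2 or more contigs compared, 922 had a contig at least 4-fold higher in root, 629 had one at least 4-fold higher in stem, and 23 had both. At 2-fold the number with both was 265. With a pseudocount of 0.1 it was 172 at 4-fold, and with a pseudocount of 5 it was 0. Contigs of single-contig genes were called more often than those of genes with several contigs: between 10 and 50 FPKM, 13.0% of 6234 single contigs were at least 4-fold higher in root and 6.14% in stem, against 6.33% and 4.0% of 3873 contigs from genes of several.

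Heat shock contigs lay on the stem side of this distribution. The authors' list named 29 gene models, of which 28 had a contig, and these fell on 27 contigs. The filter kept 25; HSP20_PEQU_23675 was listed at 0 in both libraries, and the contig shared by HSP20_PEQU_17855 and HSP20_PEQU_41347 was at 0.130 FPKM in root and 0.514 FPKM in stem. Of the 25, 18 were higher in stem, where 34.0% of all contigs compared were, and the median difference was 0.42 against -0.49 over all contigs. By bin of mean FPKM, the share of all contigs higher in stem ran from 21.1% to 42.5%. HSP20_PEQU_07627 and HSP20_PEQU_14367 reached 1 FPKM in stem only, so the filter fixed their direction. The rest of the 25 were at 1 FPKM or more in both libraries. Over all contigs at that level in both, the median difference was -0.25. At least 2-fold higher in stem were 7 of 25, beside 14.7% of all contigs, and none was 2-fold higher in root, beside 31.0%. Since heat shock contigs were more abundant than most, each was also placed among contigs of its own bin of mean FPKM. There 24 of 25 lay above the bin's median difference, and 9 lay at its 75th percentile or higher. HSP20_PEQU_07627 and HSP20_PEQU_14367 had to lie above that median. The filter fixed them on the stem side, and the medians of their bins were negative, at -0.48 and -0.62. The 3 other scalings multiply each library by 1 factor and all raise stem against root. The count of 24 could thus hardly change under them and stayed the same. The number higher in stem could only rise, and was then 22 or 23 of 25. Over all contigs the median difference stayed negative in these scalings, between -0.38 and -0.24.

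HSP20 contigs held the widest differences of the list. Of 11 kept, 9 were higher in stem, beside 34.0% of all contigs, and 4 of them at least 2-fold, beside 14.7%. All 11 lay above the median of their bin, between percentiles 55.2 and 96.1. HSP20_PEQU_07627 and HSP20_PEQU_14367, whose direction the filter fixed, are among the 9 and the 11. The median level was 2.60 FPKM in root and 8.46 FPKM in stem. HSP20_PEQU_14367 was at 0.782 FPKM in root and 9.22 FPKM in stem, a difference of 2.52 on the log2 scale. It was the only heat shock contig past 4-fold, beside 3.66% of all contigs in that direction, and its root level lies in the range where values moved in steps.

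Gene models with neighbouring identifiers did not all move together. HSP20_PEQU_14369 went from 2.40 FPKM in root to 7.31 FPKM in stem, and HSP20_PEQU_14371 from 2.29 to 8.46 FPKM. HSP20_PEQU_14374, more abundant than either, was at 39.6 FPKM in root and 35.3 FPKM in stem. The contigs of HSP20_PEQU_14369 and HSP20_PEQU_14371 lay at percentiles 90.8 and 92.7 of their bins, while that of HSP20_PEQU_14374 was at 55.2. Without these 4 neighbours 6 of 7 HSP20 contigs were higher in stem.

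Most of the remaining small heat shock contigs differed little. HSP20_PEQU_09331 had the highest stem level of the family, at 68.3 FPKM against 23.5 FPKM in root, which is 2.91 times. HSP20_PEQU_07221 had 10.1 FPKM in root and 13.3 in stem, HSP20_PEQU_10259 had 28.9 and 31.3, and HSP20_PEQU_09328 had 2.60 and 3.01. HSP20_PEQU_08607 stood at 2.17 FPKM in root and 3.67 in stem, and HSP20_PEQU_07627 at 0.586 and 1.12, where the other 2 contigs of its Trinity gene were also higher in stem. HSP20_PEQU_23676, at 3.65 FPKM in root and 3.08 in stem, was higher in root like HSP20_PEQU_14374. Both of these turned with scaling, the first in 2 and the second in all 3 of the other scalings.

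HSP70 contigs were also mostly higher in stem, by smaller factors. Of 8 contigs, all of which passed the filter, 6 were higher in stem, beside 34.0% of all contigs. All 8 lay above the median of their bin, with family medians of 52.9 FPKM in root and 83.8 FPKM in stem. HSP70_PEQU_21700 was at 154 FPKM in root and 367 FPKM in stem, and HSP70_PEQU_02517 at 62.9 and 146 FPKM, ratios of 2.39 and 2.32. HSP70_PEQU_17275 was at 23.8 FPKM in root and 47.6 in stem, just under 2-fold on the FPKM + 1 scale. Smaller differences in the same direction were those of HSP70_PEQU_03033, with 86.8 and 118 FPKM, HSP70_PEQU_15134, with 23.7 and 31.4 FPKM, and HSP70_PEQU_38972, with 42.8 and 49.6 FPKM. HSP70_PEQU_36873 was nearly level, at 38.6 FPKM in root and 38.2 in stem, and turned to stem in the 3 other scalings.

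The exception was the most abundant chaperone. HSP70_PEQU_18080 was at 5644 FPKM in root and 3516 FPKM in stem, the 3rd and 4th highest contig of the respective library, and was higher in root in every scaling, by -0.68 log2 units as deposited. In its bin of 19 contigs at 1000 FPKM or more it still stood at percentile 55.3, since most of those contigs were higher in root.

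HSP90 contigs were split evenly as deposited. Of 6, all passing the filter, 3 were higher in stem, beside 34.0% of all contigs, and 3 in root, and 5 lay above the median of their bin. HSP90_PEQU_31881, the least abundant, was at 4.19 FPKM in root and 13.4 FPKM in stem, a ratio of 3.20, and lay at percentile 92.4 of its bin. HSP90_PEQU_19268 was at 266 FPKM in root and 408 FPKM in stem, and HSP90_PEQU_14751 at 107 and 144 FPKM. Higher in root were HSP90_PEQU_15042, with 401 and 300 FPKM, HSP90_PEQU_00122, with 74.2 and 70.7 FPKM, and HSP90_PEQU_19561, with 66.3 and 60.9 FPKM. The last 2 turned to stem in the other scalings, so that 5 of 6 were then higher in stem, and HSP90_PEQU_15042 remained on the root side.

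**Figure D5:**
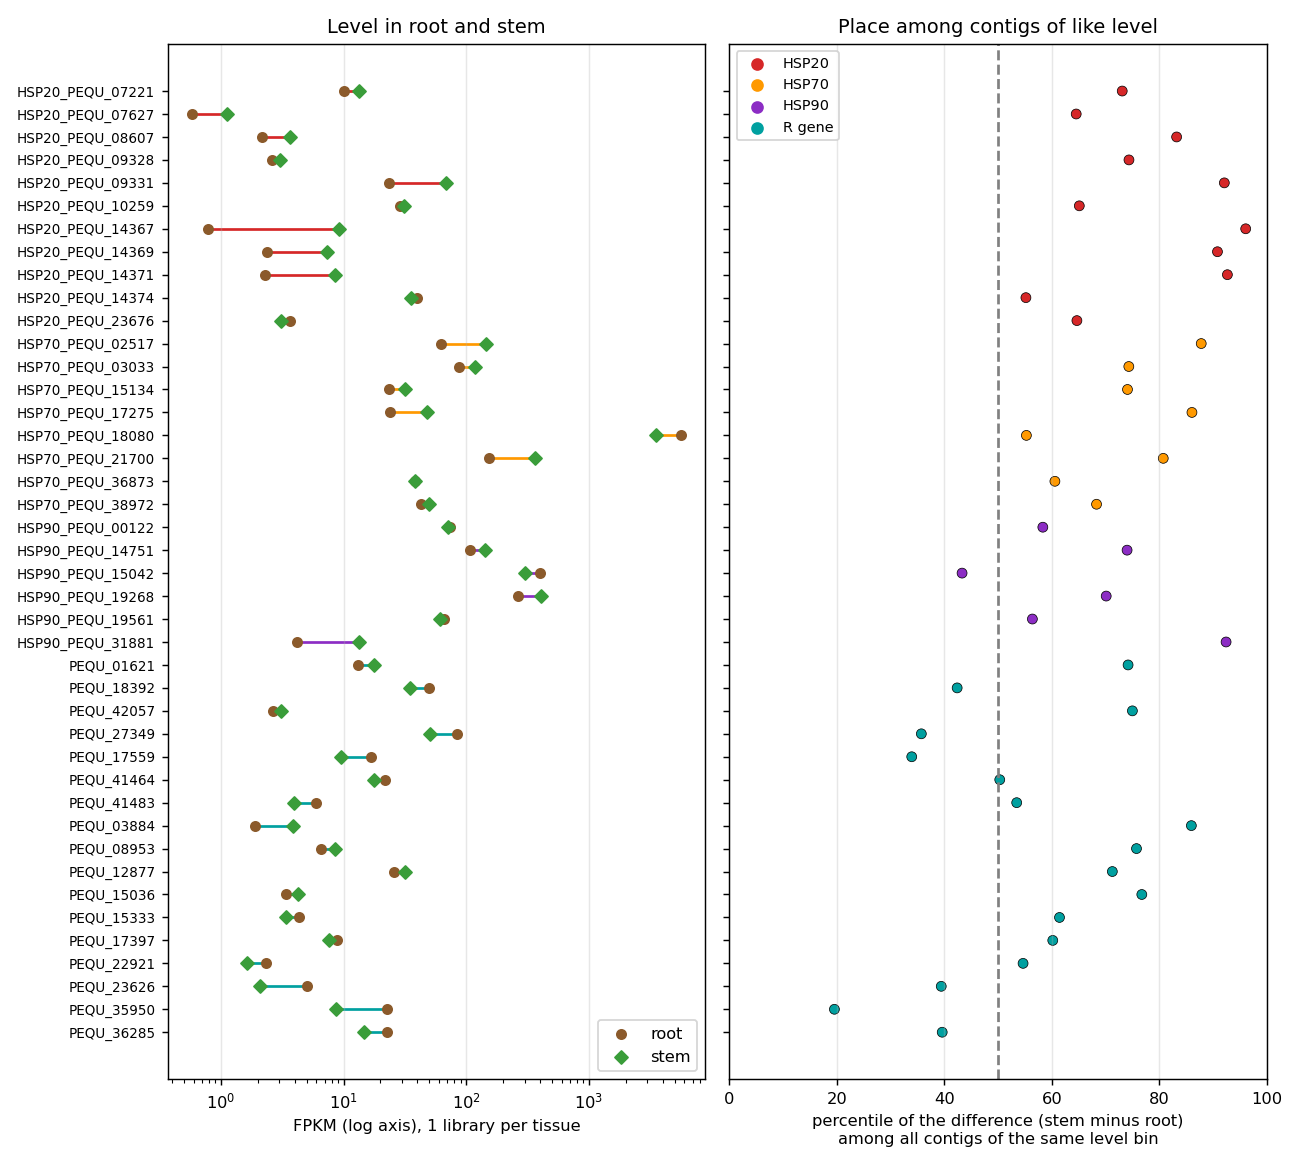
Left, FPKM in root (circles) and stem (diamonds) on a log axis for the 25 heat shock and 17 R gene contigs that passed the filter, 1 library per tissue; right, the percentile of each contig's difference, stem minus root, among all contigs of the same bin of mean FPKM. All HSP20 and HSP70 points lie to the right of 50, whereas R gene points spread from 19.5 to 86.0.

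As deposited, R gene contigs were split between root and stem much as all contigs were. The authors' list of 35 gene models fell on 17 contigs, all of which passed the filter. Of these 11 were higher in root and 6 in stem, a split of 64.7% beside the 66.0% of all contigs higher in root. The median difference was -0.29, against -0.49 over all contigs, with family medians of 8.89 FPKM in root and 8.51 FPKM in stem. Over contigs at 1 FPKM or more in both libraries, as all 17 were, the median difference was -0.25. None reached 4-fold in either direction, beside 7.83% of all contigs higher in root and 3.66% in stem. At 2-fold 1 was higher in root, beside 31.0% of all contigs, and none in stem, beside 14.7%. Within their bins of mean FPKM 11 lay above the median and 6 below. Scaling turned the small differences: 8 of 17 were higher in root with the ratio over contigs at 1 FPKM or more or with sums set equal, and 11 with the ratio at 10 FPKM. Scaled with the ratio over contigs at 1 FPKM or more, 61.6% of all contigs between 2 and 5 FPKM were still higher in root. That share was 55.9% between 5 and 10 FPKM and 48.4% between 10 and 50 FPKM.

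The largest difference among R genes was that of PEQU_35950 and PEQU_35952, which share contig c157534_g1_i4. It was at 22.7 FPKM in root and 8.65 FPKM in stem, a ratio of 2.62, while leaf had 4.21 FPKM and flower 1.84 FPKM. Another contig of the same Trinity gene, not on the list, differed more, at 143 FPKM in root and 15.1 FPKM in stem, a ratio of 9.51. Of the remaining contigs 1 was at 11.6 and 7.49 FPKM and 1 was listed at 0, so the sum over the Trinity gene was 178 FPKM in root and 31.2 FPKM in stem. PEQU_23626 was next, at 5.00 FPKM in root and 2.09 in stem, and the other 2 contigs of its Trinity gene had similar ratios of 2.41 and 2.00. In leaf it was at 0.160 FPKM and in flower at 0.149 FPKM. Both of these genes were higher in root in every scaling.

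The listed R gene contig with the highest level was also higher in root. The contig of PEQU_27349 led the list in both libraries, at 84.7 FPKM in root and 50.4 FPKM in stem. PEQU_18392, on c157580_g1_i1, was at 49.4 and 34.7 FPKM, the contig shared by PEQU_36285 and PEQU_38720 at 22.4 and 14.7 FPKM, and PEQU_17559 at 16.7 and 9.60 FPKM. Smaller root-side differences were those of PEQU_41464, at 21.9 and 17.8 FPKM, and PEQU_17397, at 8.89 and 7.68 FPKM. At the low end were PEQU_15333, with 4.32 and 3.42 FPKM, PEQU_22921, with 2.35 and 1.62 FPKM, and the contig of PEQU_41483 and PEQU_03885, with 5.95 and 3.94 FPKM. The differences of PEQU_41464, PEQU_15333 and PEQU_17397 turned to stem in 2 of the 3 other scalings.

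A smaller set was higher in stem. Contig c157580_g2_i2, which stands for 16 of the 35 gene models, among them PEQU_01621, was at 13.1 FPKM in root and 17.6 FPKM in stem. The reads of these 16 models cannot be divided, and its neighbour in the same assembly component, c157580_g1_i1, had the opposite direction. PEQU_03884 had the largest stem-side difference, at 1.88 FPKM in root and 3.88 FPKM in stem, or 0.76 log2 units. PEQU_12877 was at 25.8 and 32.0 FPKM, PEQU_08953 at 6.51 and 8.51 FPKM, PEQU_15036 at 3.40 and 4.29 FPKM, and PEQU_42057 at 2.63 and 3.12 FPKM. For PEQU_08953 the 3 further contigs of its Trinity gene above 0 were higher in stem as well.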

How the data were processed

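Total RNA was sequenced from 1 library each of root, stem, leaf and flower. The authors assembled contigs of at least 200 nucleotides de novo with Trinity (r2013-02-25), as the design text states. In the submitters' processing notes edgeR and DESeq are listed with no role. The FPKM values were deposited by the authors, per the file headers; no mapper or estimator is named there. The list tables also hold the bit score of each match, as deposited, and their FPKM equalled those of the table of all contigs. None of the 63 gene model identifiers was found in the RefSeq gene table, and no sequences were used.

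Columns were assigned by the tissue in their header. Differences were log2(FPKM + 1), stem minus root, over contigs of FPKM 1 or more in either, described by fixed sizes (2-fold, 4-fold) and by percentile within bins of mean FPKM (ties counted at their midpoint), with each list contig counted once. No test was possible. The unnamed contigs printed are the 2 widest in each direction. Under other scalings the same contigs were kept. The counts of calls, the scaling and the percentiles were tested on simulated data; the reading of low values as whole reads was not. Members and lists were chosen with earlier results of these data known. Python 3.11.15, numpy 2.4.6 and pandas 2.3.3 were used.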

Additional observations from a re-analysis of the deposited data

How the results depend on the processing

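No paired analysis was possible because each tissue has 1 library, and for the same reason no replicate could be left out. The counts of contigs at least 4-fold higher in root and in stem were 34813 and 18271 with a pseudocount of 0.1, 970 and 583 with a pseudocount of 5, 1795 and 710 over contigs at FPKM 1 or more in both libraries, and 3063 and 1324 over contigs at FPKM 10 or more in either. Root had the larger count in each of these, and the last 2 compare fewer contigs. By arithmetic a larger pseudocount narrows the differences of low contigs. Between 2 and 5 FPKM there were 9344 root and 3141 stem calls with a pseudocount of 0.1, and 0 of each with 5. The number of Trinity genes with isoforms of opposite direction was 172 and 0 with pseudocounts of 0.1 and 5. R gene contigs higher in root numbered 8 of 17 with sums set equal (median difference 0.04), again 8 with median-of-ratios factors (median difference 0.02), and 14 of 35 when each gene model was counted, because 16 models share 1 contig that is higher in stem. Over all contigs the median difference was -0.24 with sums set equal and -0.26 with median-of-ratios factors. Scaling moved the log2 ratio of stem to root by 0.39 with sums set equal, 0.36 by median-of-ratios and 0.18 with the ratio over contigs at FPKM 10 or more. The heat shock count higher in stem ran from 15 of 21, without the 4 neighbouring HSP20 models, to 23 of 25 over its alternatives. The scaling over FPKM 10 and the alternatives for isoforms, for leaf and flower and for single neighbours were chosen after seeing the data. Read totals were not used here, so the depth behind each value is unknown; values of low contigs moved in steps.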

Other observations

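The most abundant contigs of root and stem overlapped in part. Of the 100 highest contigs in each library 48 were shared, 48.0% of each list, and of the 1000 highest 555 were shared, or 55.5%. The 100 highest held 14.2% of summed FPKM in root and 13.0% in stem. Of the 1000 highest in stem 56 were under 1 FPKM in root, and of the 1000 highest in root 4 were under 1 FPKM in stem.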
